A study of Mus musculus with 8 samples.

Results

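The protein-coding genes of the mouse initiation factors (Eif1 to Eif6) and elongation factors (Eef1 and Eef2), with the kinases, methyltransferases and binding proteins that carry the same symbols, were followed in the livers of androgen-treated female mice. They were chosen by symbol in the GENCODE M21 annotation, leaving out Eif2ak3. The annotation holds 67 such genes, and 63 of them are among the 14317 mouse genes of the expression table. Eef1akmt3, Eef1akmt4, Eif2s3y and Eif4e1b are not in the table and were not analysed here.

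Female mice were fed a Western diet (WD) and received, at 7 weeks of age, either a 10 mm pellet of dihydrotestosterone (DHT), an androgen that is not converted to estrogen, or an empty pellet. The groups are called Con-DHT and Con-Veh. Liver RNA was sequenced after 8.5 weeks, with 1 library from each of 4 Con-Veh and 4 Con-DHT mice. The labels give the genotype of both groups as WT. The animals were fasted overnight before the livers were taken, and their ovaries were left in place. Between 13123962 and 17815944 reads fell on mouse genes per library. Of the 8 hepatocyte markers, 7 were in the table and were abundant in every library, and limma and edgeR called none of them between the groups (1 at an unadjusted p of at most 0.05 in limma), whereas DESeq2 called 2. All 8 Kupffer cell markers had a log2 fold change below 0 and limma called 4 of them lower in Con-DHT, with a summed value of 4917 to 6709 against 7307 to 8997 in Con-Veh. Of 7 sinusoidal endothelium markers 6 were below 0 and limma called 2 lower, with a summed value of 3312 to 4003 against 4156 to 4724. Of all 14312 tested genes, 7368 had a log2 fold change below 0, and limma called 2.61% of them lower in Con-DHT. In bulk liver, fewer cells of a type and less RNA per cell cannot be told apart. Striated muscle markers stood apart in 2 libraries: their summed value was 894 in Con-DHT 3 and 472 in Con-DHT 4, against 19.6 to 134 in the other 6, and the same 2 libraries had the highest summed adipocyte markers, at 2009 and 2524 against 521 to 785. No muscle or adipocyte marker was called between the groups by limma, edgeR or DESeq2, and 0 reached an unadjusted p of 0.05 in limma. The part of these other cell types in the values of the translation factors was not tested.

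Protein synthesis starts when eIF2, loaded with GTP and the initiator tRNA, joins the small ribosomal subunit with eIF1, eIF1A, eIF3 and eIF5, and the eIF4 proteins bring this complex to the capped end of an mRNA. During elongation eEF1A delivers each aminoacyl-tRNA to the ribosome, the eEF1B subunits reload eEF1A with GTP, and eEF2 moves the ribosome along by a codon. Most control of this pathway acts on proteins by phosphorylation, which RNA levels do not show. The liver, which makes most plasma proteins, uses the pathway heavily.

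Promoter sequences from RefSeq (GRCm38.p6), running from 250 bases before the start site to 50 after it, were found for 49 of the 63 genes. The 150 bases before the start sites of Eef1a1 and Eef1a2, which encode near-identical proteins, and of Eef2 are printed. Of these 3 genes, which are described below, limma called only Eef1a2 between the groups. Capitals mark a GC box (GGGCGG or its reverse complement) or a TATAAA on the strand of the gene.
Eef1a1, chr9:78481725-78481874, minus strand: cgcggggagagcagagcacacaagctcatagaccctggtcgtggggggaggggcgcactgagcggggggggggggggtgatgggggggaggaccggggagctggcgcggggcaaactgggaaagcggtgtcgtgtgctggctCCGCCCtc
Eef1a2, chr2:181157016-181157165, minus strand: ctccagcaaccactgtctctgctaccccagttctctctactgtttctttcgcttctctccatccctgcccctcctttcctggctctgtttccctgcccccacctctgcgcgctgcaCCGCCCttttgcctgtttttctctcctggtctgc
Eef2, chr10:81176481-81176630, plus strand: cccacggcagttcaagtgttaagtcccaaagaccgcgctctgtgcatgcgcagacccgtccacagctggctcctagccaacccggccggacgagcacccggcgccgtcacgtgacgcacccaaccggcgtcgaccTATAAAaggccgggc
A GC box on either strand was present in 37 of the 49 promoters (75.5%) and in 66.2% of the 10611 tested genes with a promoter entry. TATAAA was present in 4 of the 49 (Eef2, Eif2s1, Eif3b and Eif3f; 8.16%) and in 5.86% of the tested genes.

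STAT5, which growth hormone activates in liver, binds the palindrome TTCNNNGAA, and the study asked whether DHT acts through it. The letters occurred in 6 of the 49 promoters (12.2%) and in 8.42% of the promoters of all tested genes. The 6 stretches are shown with the palindrome in capitals.
Eef1e1, chr13:38659222-38659250, minus strand: ggatacattcTTCTGTGAAactgtctaca
Eef2k, chr7:120843386-120843414, plus strand: cgggcctcagTTCTCGGAAcctcgaggtc
Eif2ak2, chr17:78882732-78882760, minus strand: ctgcagagctTTCCCAGAAtggaagccag
Eif3c, chr7:126566415-126566443, minus strand: tctttggtgcTTCCGGGAAgtgacgcccc
Eif3g, chr9:20898757-20898785, minus strand: gtttaaaaagTTCTTTGAAgctttttttt
Eif4e, chr3:138527119-138527147, plus strand: aagactccacTTCCCAGAAgcctctcctt
A match of letters is a description of the sequence and not a binding site. In the main comparison limma called none of these 6 genes between the groups, and neither did edgeR or DESeq2. Eif3c and Eif4e reached an unadjusted p of 0.05 in limma. With totals made equal outside the Mup genes limma called both (adjusted p = 0.0371 and 0.0238), and with spike-in scaling neither (0.873 and 0.837).

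The 63 genes spanned a wide range of transcript levels, which were compared per kilobase of annotated exon. Eef1a1 was the highest at 25894 ± 304 per kb in Con-Veh (SD, n = 4), followed by Eef2 at 13558 ± 782. Eif1 (2224 per kb), which guards start codon choice, Eif5a (1962 ± 93.4) and the helicase cofactor Eif4b (1541) came next. The lowest was Eif5a2, the second gene for eIF5A, at 5.49 ± 0.776 per kb. Eif4e, the cap-binding protein, stood at 94.1 ± 5.72 per kb, and its partner Eif4g1, the scaffold on which the eIF4F complex forms, at 1167 ± 56.0. The RNA of the other helicase subunits was intermediate: Eif4a1 at 906 ± 135 per kb and Eif4a2 at 910.3 ± 96.0 did not differ beyond their spread. Near copies limit this ranking. Of the 63 genes, 23 match a transcript of another gene (at least 95% identity over at least 300 bases). Eef1a1 matches 8 such genes, and Eef2 and Eif3h match 1 each. For Eef2kmt, Eif1ad, Eif2ak1, Eif3d, Eif4ebp3 and Eif5b the only match is a neighbour with overlapping exons, and not a copy elsewhere.

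**Figure D1:**
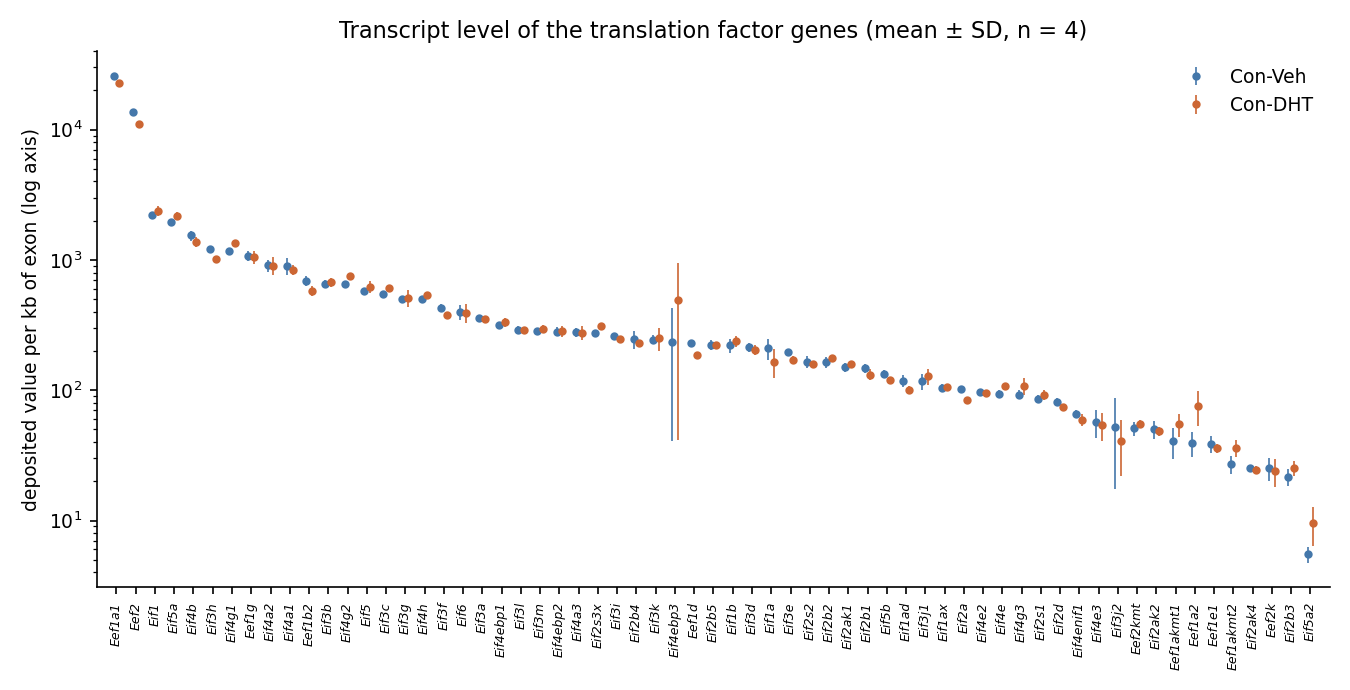
Deposited value per kilobase of exon (log axis) for the 63 translation factor genes, in order of the Con-Veh mean, with mean ± SD of 4 Con-Veh (blue) and 4 Con-DHT (orange) livers. Eef1a1 and Eef2 stand above all others, and the Eif4ebp3 and Eif3j2 bars are wide in both groups.

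Between the groups, 3 of the 63 genes passed the test (limma on log2 of the deposited value + 1, adjusted over 14312 genes), which is 4.76% of them, against 7.21% of all tested genes. Eef1a2 was higher in Con-DHT, and the exchange factor subunit Eef1d and the eIF3 subunit Eif3h were lower. The median log2 fold change of the 63 genes (Con-DHT minus Con-Veh) was -0.01, as it was over all tested genes, and 57 of the 63 lay within 0.35 of 0. Their median coefficient of variation between mice was 7.62% in Con-Veh and 7.71% in Con-DHT, against 13.1% and 13.4% over all tested genes. Neither this comparison nor those that follow were matched for level. The lowest mean among the 63 genes was 37.9, whereas genes averaging at least 10 were tested. An unadjusted p of at most 0.05 was reached by 17 of the 63, against 23.2% of all tested genes. Con-Veh and Con-DHT values were fully separated for 15 of the 63 (23.8%), against 15.1% of all tested genes. Of the 63 genes, 7 were separated with Con-DHT higher, against 8.49% of all tested genes, and 8 with Con-DHT lower, against 6.62%. EdgeR on the recovered reads called 4 of the 63 (7.15% of all tested genes) and DESeq2 called 8 (11% of all tested genes). The calls changed with single libraries while the folds moved little: leaving out Con-Veh 4 or Con-DHT 1 left 0 of the 63 called by limma, with 15 and 12 at an unadjusted p of at most 0.05, leaving out Con-Veh 1, Con-Veh 3 or Con-DHT 2 left 1, and 0 were called when both libraries with muscle transcripts were left out (15 at an unadjusted p of at most 0.05). Eef1d was called in 6 of the 8 omissions of a single library, Eef1a2 in 2 and Eif3h in 1, and over the 8 omissions the log2 fold changes ran from -0.33 to -0.28 for Eef1d, from 0.75 to 1.09 for Eef1a2 and from -0.28 to -0.24 for Eif3h.

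**Figure D2:**
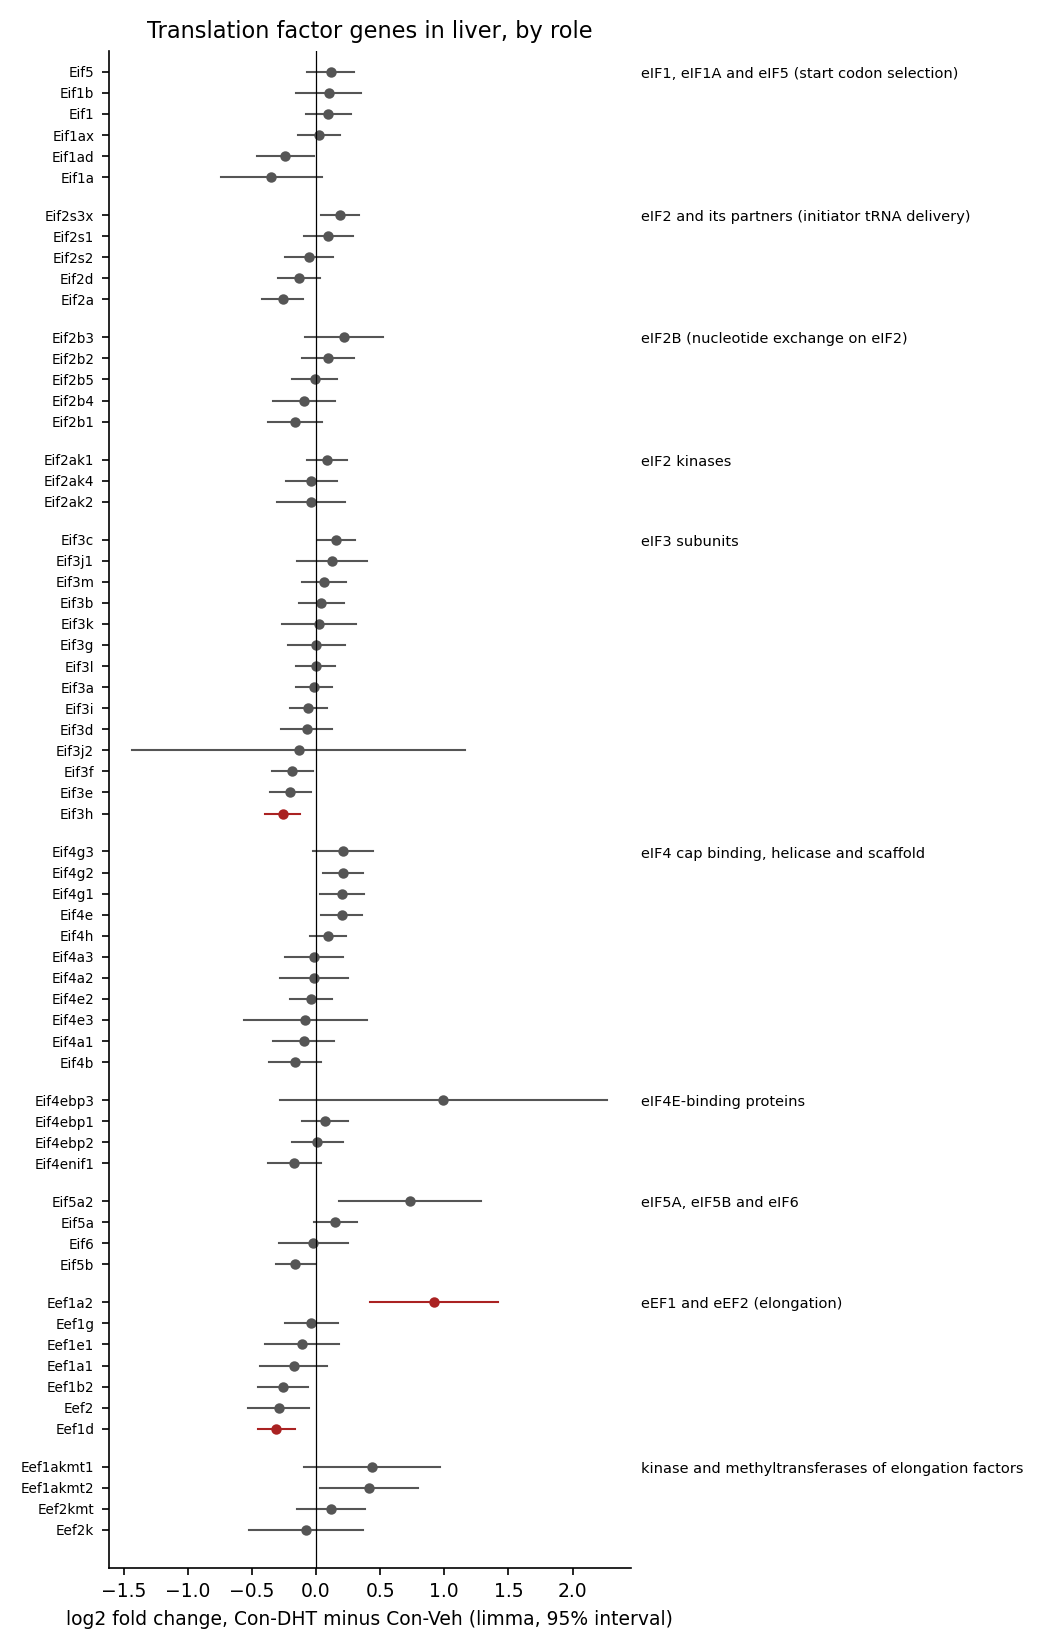
Log2 fold change (Con-DHT minus Con-Veh) of each of the 63 genes with its 95% interval from limma, grouped by role; red marks the 3 genes with an adjusted p of at most 0.05. Eef1a2 lies above 0, Eef1d and Eif3h lie below, and the intervals of Eif4ebp3 and Eif3j2 are the widest.

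The size factors of the deposited values set where 0 lies. When the libraries were scaled by the synthetic spike-ins instead, the median over the 14312 tested genes moved to 0.19 on the log2 scale and that of the 63 genes to 0.19, since a scaling factor shifts all genes of a library alike. The spike-ins took between 1.68% (Con-Veh 4) and 3.61% (Con-Veh 1) of the reads of a library, and between 2.22% and 2.75% in Con-DHT. Under spike-in scaling this spread within Con-Veh enters every gene. The groups then overlapped for every one of the 63 genes, and Eef1a2 and Eif4ebp3 passed the test. The matching share of all tested genes is not given here. An overlap or a high p under this scaling therefore cannot show that a difference is absent. The values of single genes below are relative to the median of all genes unless another scaling is named.

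Elongation held 2 of the 3 called genes, 1 higher and 1 lower in Con-DHT. They are 28.6% of the 7 genes of eEF1 and eEF2, against 7.21% of all tested genes. Eef1d encodes eEF1B delta, a subunit that reloads eEF1A with GTP. Its gene lies on chromosome 15 (GENCODE M21, GRCm38, chr15:75894205-75909556, minus strand). Its values were 1538, 1449, 1452 and 1592 in the 4 Con-Veh livers and 1143, 1250.3, 1240.0 and 1232 in the 4 Con-DHT livers. Every Con-DHT value lay below every Con-Veh value, and the mean was 19.3% lower. The log2 fold change was -0.31 (SE 0.07, limma adjusted p = 0.0192). It was -0.21 with an equal total outside the Mup genes (adjusted p = 0.0603) and -0.11 with spike-in scaling (adjusted p = 0.949). Its exons share 277 bases with those of Naprt on the same strand.

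Eef1a2 encodes the second form of eEF1A, best known from muscle and neurons. It lies on chromosome 2 (chr2:181147653-181157014, minus strand). Its values were 60.5, 103, 76.9 and 86.2 in Con-Veh and 218, 141, 107 and 164 in Con-DHT. The groups were separated by a narrow margin, with the lowest Con-DHT liver just above the highest Con-Veh liver. The log2 fold change was 0.92 (SE 0.23, limma adjusted p = 0.0359), and it was 1.11 with spike-in scaling. Beside the muscle markers, Eef1a2 was highest in Con-DHT 1, where the muscle markers summed to 19.6, the lowest of all 8 libraries, and lowest among the Con-DHT livers in Con-DHT 3, where they summed to 894. With Con-DHT 3 and Con-DHT 4 left out, the log2 fold change was 1.12 with an adjusted p of 0.055 by limma.

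**Figure D3:**
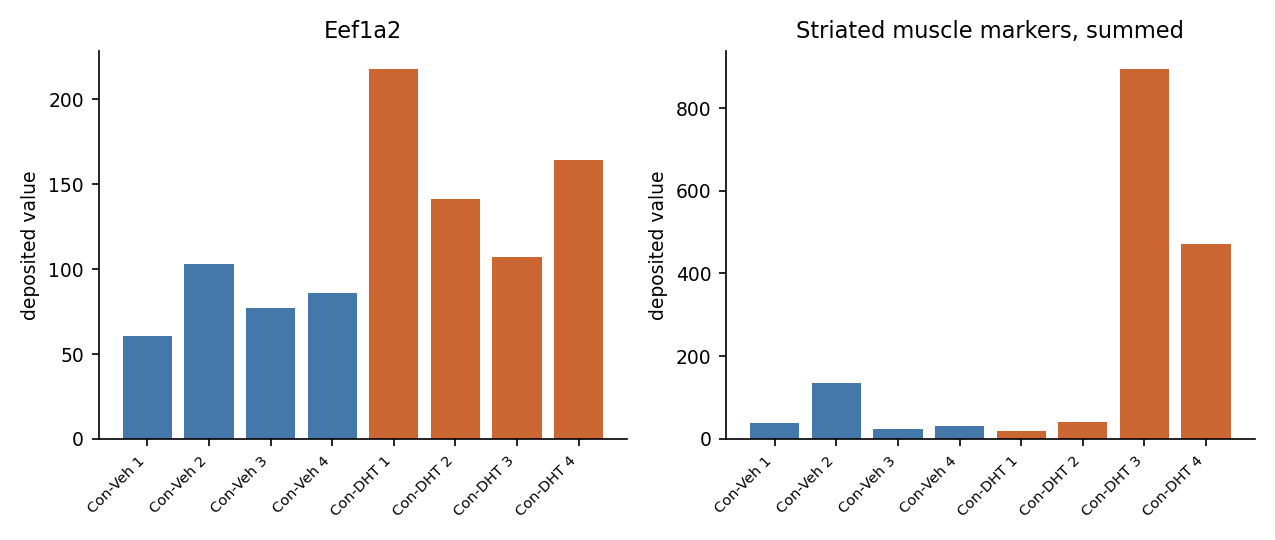
Deposited value of Eef1a2 (left) and the summed deposited value of 5 striated muscle markers (right) in each of the 8 libraries, Con-Veh in blue and Con-DHT in orange. Eef1a2 is highest in Con-DHT 1 at 218, where the muscle markers are at 19.6, and the muscle markers are highest in Con-DHT 3 at 894, where Eef1a2 is at 107.

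Eef1a1, the main eEF1A gene, showed the opposite order. Its values were 64499, 63936, 64143 and 65637 in Con-Veh and 56194, 57446, 57472 and 57616 in Con-DHT. The groups did not overlap and the spread within each was small, at 759 and 663 (SD, n = 4). The log2 fold change of -0.17 (SE 0.12) had an adjusted p of 0.415 by limma, 0.275 by edgeR and 0.00118 by DESeq2. Limma moves the SE toward that of genes of similar level, and without the intensity trend the limma adjusted p of Eef1a1 was 0.162. Under spike-in scaling its log2 fold change was 0.02.

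Eef2, the translocase, had values of 47072, 47455, 43534 and 42201 in Con-Veh and 35733, 36175, 38241 and 36988 in Con-DHT. All 4 Con-DHT livers were below all 4 Con-Veh livers, with a mean 18.4% lower. The log2 fold change of -0.29 (SE 0.11) did not pass in limma (adjusted p = 0.137, or 0.0641 without the intensity trend) or edgeR (0.0854), and passed in DESeq2 (0.000455). It was -0.15 with quantile normalization and -0.19 with an equal total outside the Mup genes (limma adjusted p = 0.491 and 0.279). With spike-in scaling it was -0.09 (limma adjusted p = 0.962).

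Eef1a1 and Eef2 dominated the RNA of the group. Together they took 55.2 ± 0.37% of the reads of the 63 genes in Con-Veh (54.9 to 55.7%) and 50.9 ± 0.54% in Con-DHT (50.3 to 51.5%). The summed value of the other 61 genes was 89060.2 ± 1802 and 90818 ± 2188. Eef1a2 contributed little to the eEF1A transcripts even where it was high: per kb it made up 0.151 ± 0.033% of the Eef1a1 and Eef1a2 sum in Con-Veh and 0.329 ± 0.10% in Con-DHT. Eef1b2, another exchange factor subunit, had a log2 fold change of -0.26 (SE 0.09, limma adjusted p = 0.107), with 1614 to 1969.9 in Con-Veh and 1332 to 1625 in Con-DHT, which overlapped slightly. Eef1g, a further eEF1B subunit gene, had one of -0.04 (SE 0.09, limma adjusted p = 0.853). Its values were 2557 to 3092 in Con-Veh and 2444.5 to 3102 in Con-DHT, and it was named after they were seen. Of the 7 elongation factor genes 6 had a log2 fold change below 0 and the median was -0.17. Over all 14312 tested genes, 7368 were below 0 and the median was -0.01. With spike-in scaling the median of the 7 genes was 0.02, against 0.19 for all tested genes. None of the 4 kinase and methyltransferase genes of elongation was called by limma, edgeR or DESeq2, and 1 reached an unadjusted p of 0.05 in limma. Eef2k, the kinase that inactivates eEF2, ranged from 132 to 218 in Con-Veh and from 137 to 215 in Con-DHT, and its log2 fold change of -0.08 had a wide interval (-0.52 to 0.37).

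**Figure D4:**
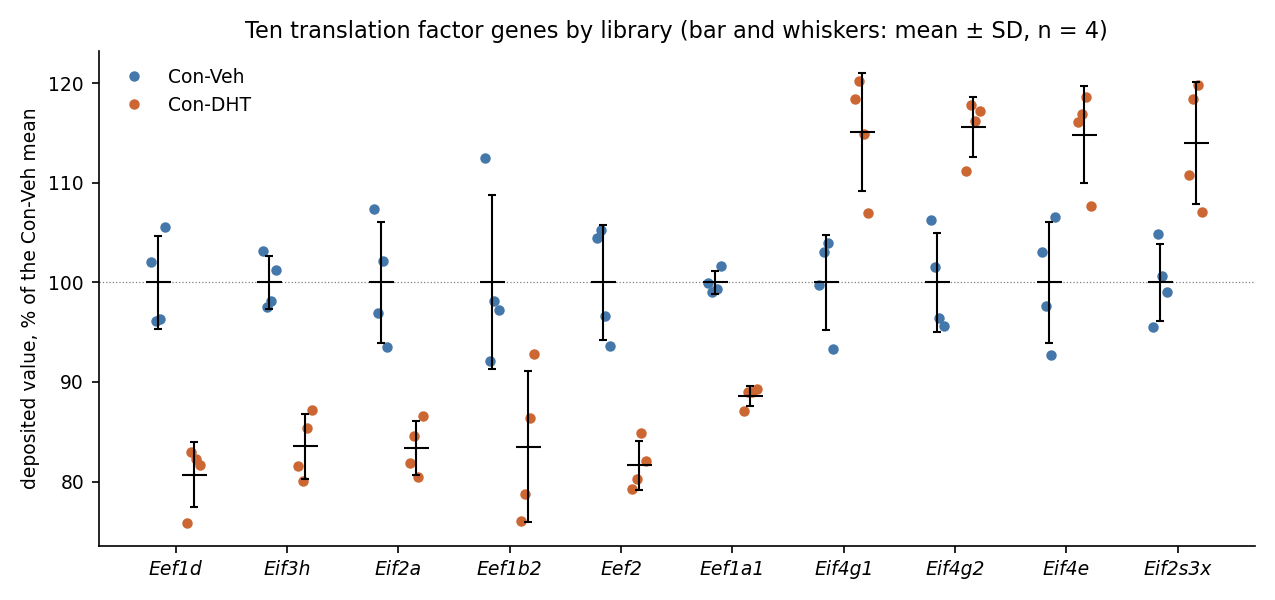
Deposited value of 10 translation factor genes in each library as a percentage of the Con-Veh mean (vertical axis, not starting at 0), with mean ± SD of 4 livers. Eef1d, Eif3h, Eif2a, Eef2 and Eef1a1 lie lower in every Con-DHT liver than in any Con-Veh liver, Eif4g1, Eif4g2, Eif4e and Eif2s3x lie higher, and the values of Eef1b2 overlap.

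The eIF3 complex, the large scaffold on the small ribosomal subunit, was represented by 14 genes, of which 1 passed. Eif3h encodes its h subunit and lies on chromosome 15 (chr15:51786558-51865523, minus strand). Its values were 2017, 1907, 1919 and 1979 in Con-Veh and 1595, 1566, 1669 and 1705 in Con-DHT. The groups were clearly separated, with a mean 16.5% lower in Con-DHT. The log2 fold change was -0.26 (SE 0.06, limma adjusted p = 0.0304), -0.16 with an equal total outside the Mup genes (adjusted p = 0.135) and -0.06 with spike-in scaling (adjusted p = 0.969).

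Eif3e and Eif3f were the eIF3 genes with the next smallest p-values and did not pass. Eif3e had a log2 fold change of -0.20 (SE 0.07, limma adjusted p = 0.129) with 1279.7 to 1421 against 1077 to 1266, and Eif3f one of -0.18 (SE 0.07, adjusted p = 0.16) with 1117 to 1299 against 1056 to 1172. The Eif3e groups did not overlap and the Eif3f groups did. The core subunit Eif3a lay at 2981 to 3241 in Con-Veh and 2979 to 3202 in Con-DHT, and its log2 fold change was -0.02 with an interval from -0.15 to 0.12. Over the 14 genes the median log2 fold change was -0.01. Eif3c, which holds a STAT5-type palindrome, was higher in every Con-DHT liver (2048 to 2257 against 1809 to 1988) with a log2 fold change of 0.16 that did not pass (limma adjusted p = 0.17), and it was named after its values were seen. With an equal total outside the Mup genes its log2 fold change was 0.26 and passed in limma (adjusted p = 0.0371). With spike-in scaling it was 0.36 and did not pass (limma adjusted p = 0.873).

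No gene of the eIF4 cap-binding group passed in limma or edgeR, 3 of the 11 reached an unadjusted p of 0.05 in limma and DESeq2 called 2. Eif4g1 had values of 8493, 8775, 8853 and 7951 in Con-Veh and 10087, 10239.5, 9786 and 9107 in Con-DHT. Eif4g2, a related scaffold that does not bind eIF4E, had 7005, 6692, 6357 and 6304 against 7329.6, 7763, 7661 and 7727. Eif4e had 583, 552, 524 and 602 against 656, 661, 671 and 609. In all 3 genes each Con-DHT liver exceeded each Con-Veh liver, and the log2 fold changes were close to each other: 0.20 for Eif4g1, 0.21 for Eif4g2 and 0.20 for Eif4e, with limma adjusted p-values of 0.149, 0.104 and 0.129. DESeq2 called Eif4g1 (adjusted p = 0.0455) and Eif4g2 (0.0161) and not Eif4e (0.14). With an equal total outside the Mup genes, limma called all 3, with log2 fold changes of 0.30, 0.31 and 0.30. With the length and GC correction the log2 fold changes were 0.13 for Eif4g1, 0.0738 for Eif4g2 and 0.14 for Eif4e (limma adjusted p = 0.33, 0.62 and 0.302), and with spike-in scaling none of the 3 passed in limma (adjusted p = 0.845, 0.834 and 0.837). The helicase genes lay near 0, with log2 fold changes of -0.09 for Eif4a1 (-0.33 to 0.14) and -0.01 for Eif4a2 (-0.28 to 0.25). Over the 11 genes the median log2 fold change was -0.01.

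Among the eIF4E-binding proteins, which hold eIF4E away from eIF4G when they are not phosphorylated, none of 4 genes passed in limma, edgeR or DESeq2, and none reached an unadjusted p of 0.05 in limma. Eif4ebp1 ranged from 661 to 758 in Con-Veh and from 652 to 789 in Con-DHT, and Eif4ebp2 from 1489.6 to 1778 and 1468 to 1844. The estimates were 0.07 and 0.01 on the log2 scale. Eif4ebp3 varied far more between mice, with values of 387, 86.9, 119 and 101 in Con-Veh and 222, 232, 144 and 864 in Con-DHT. The log2 fold change of 0.99 had an interval from -0.28 to 2.27 and the groups overlapped. It rested on Con-DHT 4, without which it was 0.46 (limma adjusted p = 0.623).

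The eIF2 arm, which delivers the initiator tRNA and is shut down by phosphorylation under amino acid shortage, endoplasmic reticulum stress or viral RNA, held no call in limma among the 5 genes of eIF2 and its partners, with 2 at an unadjusted p of at most 0.05, and edgeR and DESeq2 called 1. Eif2a, which encodes a separate initiator tRNA-binding protein and not a subunit of eIF2, came nearest. Its values were 666, 601, 634 and 581 in Con-Veh and 508, 525, 499 and 537 in Con-DHT. The groups did not overlap, and the log2 fold change of -0.26 (SE 0.07) had an adjusted p of 0.0545 by limma, 0.0487 by edgeR and 0.0314 by DESeq2. The gamma subunit gene Eif2s3x, on the X chromosome, had values of 995, 1092, 1047 and 1031 in Con-Veh and 1153, 1233, 1247 and 1114 in Con-DHT. These groups did not overlap either, and the log2 fold change was 0.19 (SE 0.07, limma adjusted p = 0.123). With an equal total outside the Mup genes it was 0.29 and passed in limma (adjusted p = 0.0252). With spike-in scaling it was 0.39 and did not pass (limma adjusted p = 0.845). Eif2s1, the alpha subunit that the stress kinases phosphorylate, had a log2 fold change of 0.10 with an interval from -0.10 to 0.29.

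The 3 eIF2 kinases in the group and the 5 genes of eIF2B, the exchange factor that reloads eIF2, showed no call in limma, edgeR or DESeq2, and none of these 8 genes reached an unadjusted p of 0.05 in limma. Log2 fold changes were 0.09 for Eif2ak1 (the heme-regulated kinase), -0.04 for Eif2ak2 (the kinase activated by double-stranded RNA) and -0.04 for Eif2ak4 (the amino acid sensor GCN2). Eif2b5, the catalytic subunit of eIF2B, lay at 513 to 634 in Con-Veh and 559 to 596 in Con-DHT, with an interval of -0.19 to 0.16 around a log2 fold change of -0.01.

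Start codon selection and the late factors were also without a call in limma, edgeR or DESeq2, and 1 of 6 and 2 of 4 genes reached an unadjusted p of 0.05 in limma. Eif5, which triggers GTP hydrolysis on eIF2, had a log2 fold change of 0.12 (-0.07 to 0.30). Eif5a, whose hypusine-bearing protein helps ribosomes past difficult peptide bonds, had one of 0.15 (-0.01 to 0.32). Eif5a2 had values of 24.2, 31.8, 29.9 and 24.4 in Con-Veh and 66.7, 33.9, 35.7 and 56.5 in Con-DHT. These did not overlap, with 2 Con-DHT livers close to the Con-Veh range, and the log2 fold change of 0.74 (SE 0.25) had a limma adjusted p of 0.108. Eif6, which keeps the ribosomal subunits apart, had a log2 fold change of -0.02 (-0.29 to 0.25). Eif1ad and Eif5b were the remaining genes without overlap, with log2 fold changes of -0.24 and -0.16, and were named after their values were seen.

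The rest of the translation machinery was read from lists of related genes. The cytosolic ribosomal protein list was taken by symbol, so it also holds Rps19bp1, a gene for a binding protein of Rps19, and Rpl7l1. Neither of these was called by limma (adjusted p = 0.273 and 0.116). Of the 86 genes of this list, 16 were called lower and 1 higher by limma, against 2.61% and 4.6% of all tested genes, and 85 of the 86 had a log2 fold change below 0. Their median was -0.26, against -0.01 for the translation factors. Rpl17 (-0.40, SE 0.07, limma adjusted p = 0.00694) and Rpl7 (-0.41, SE 0.08, adjusted p = 0.0144) fell the most clearly, and Rps27rt, a retrotransposed copy of Rps27, rose by 1.56 on the log2 scale from a mean of 14.8. This shift depended on the scaling: with spike-in scaling the median was -0.06 against 0.19 for all genes and 0 were called lower, and with an equal total outside the Mup genes it was -0.16 against 0.09 and 2 were called lower. As deposited, the median of all genes lay 0.25 above that of the ribosomal protein genes, a distance that a scaling factor cannot change, and it lay 0.21 above with quantile normalization and 0.28 above with the length and GC correction, where 5 and 49 were called lower. Leaving out any 1 library moved the count by more than 1.5 times: 2 were called lower without Con-Veh 4, Con-DHT 1 or Con-DHT 2, 4 without Con-Veh 1, Con-Veh 2 or Con-Veh 3, 9 without Con-DHT 3 and 31 without Con-DHT 4.

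**Figure D5:**
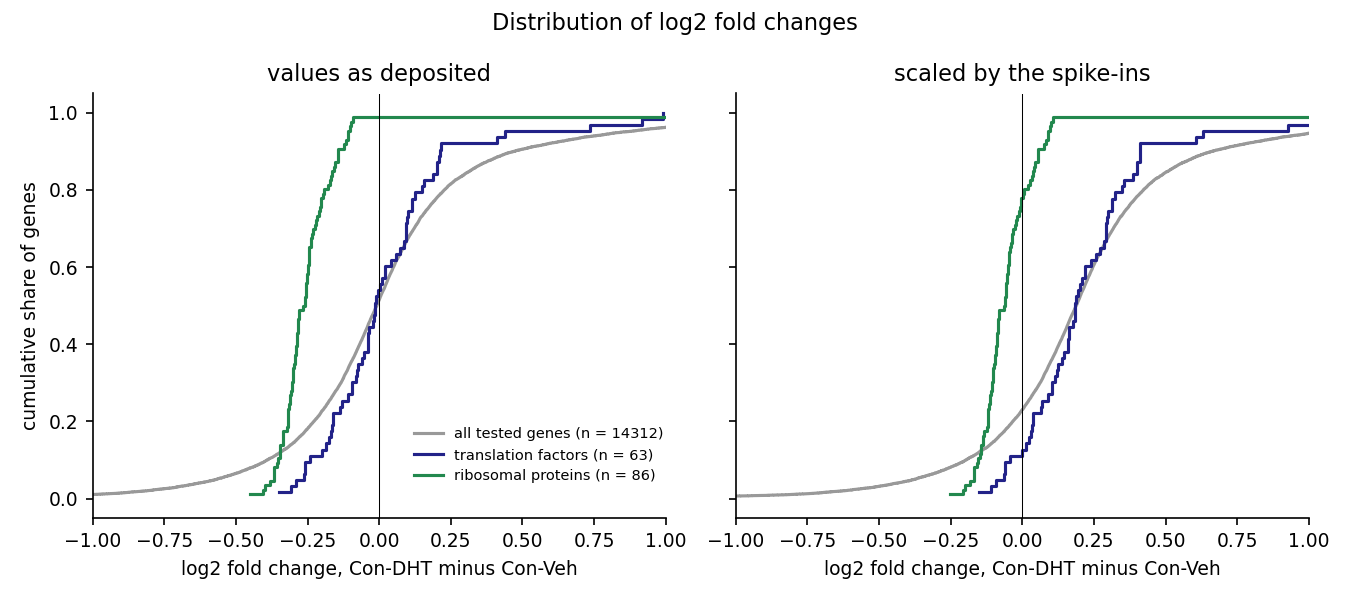
Cumulative share of genes (vertical axis) against log2 fold change, Con-DHT minus Con-Veh (horizontal axis, cropped at -1 and 1), for all 14312 tested genes, the 63 translation factors and 86 ribosomal protein genes, as deposited (left) and scaled by the spike-ins (right). The translation factor curve crosses the middle of the curve of all genes, at -0.01 on the left and 0.19 on the right, and the ribosomal protein curve lies to the left of it in both panels.

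Targets of ATF4, the transcription factor whose mRNA is translated when eIF2 is phosphorylated, and the eIF2 phosphatase subunits gave 7 limma calls among 19 genes (36.8%), against 7.21% of all tested genes. Psat1 (log2 fold change 1.66, SE 0.15, limma adjusted p = 0.000308), an enzyme of serine synthesis, Trib3 (0.85, SE 0.12, adjusted p = 0.00273), a pseudokinase, and Mthfd2 (1.26, SE 0.24, adjusted p = 0.0121), of mitochondrial one-carbon metabolism, rose. Phgdh and Slc7a11 also rose, and Ddit3, which encodes CHOP, and Slc3a2 fell, so that the called genes did not share a direction. The last 4 were named to complete the count. The list of 22 cytosolic aminoacyl-tRNA synthetase genes also holds Aimp1 and Aimp2. In it Gars rose (0.48, SE 0.10, limma adjusted p = 0.0191) and the other 21 did not pass in limma, whereas DESeq2 called 3. Of the 19 genes that link mTORC1 and the MNK kinases to eIF4E and S6, Rps6 fell (-0.38, SE 0.09, limma adjusted p = 0.0275), and it is also a ribosomal protein gene. None of 17 termination, recycling and poly(A)-binding genes and none of 10 mitochondrial translation factor genes was called by limma, edgeR or DESeq2, and 2 and 0 of them reached an unadjusted p of 0.05 in limma. The list of 17 also holds Dhps and Dohh.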

How the data were processed

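Liver RNA of 4 Con-Veh and 4 Con-DHT mice was sequenced with the NEBNext Ultra II kit and synthetic spike-in RNA, with 1 library per mouse. Per the submitters' processing notes, the reads were trimmed with Trimmomatic, aligned with STAR, counted with featureCounts (Subread) and compared with DESeq2, and the genome build named there is GRCm39. Whether counting used the strand is not given in the sources used here, so overlapping genes may share reads. The values the authors deposited are a normalized signal: read counts per gene after division by the size factor of their library. Each value was a whole multiple of the value of 1 read (0.87 to 1.10), and 100% of the values came out whole within 0.02. The libraries held 13123962 to 17815944 reads on mouse genes, and every translation factor gene had at least 22 reads in every library.

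A pseudocount of 1 was added before taking log2, and mouse genes averaging at least 10 were tested, 14312 in all, the 63 translation factor genes among them. The pseudocount shrinks the fold changes of low genes. The groups were compared with limma 3.58.1 (R 4.3.3, moderated with an intensity trend) and p-values received Benjamini-Hochberg adjustment over all tested genes at a threshold of 0.05. EdgeR 4.0.16 (quasi-likelihood) and DESeq2 1.42.0 were run on the recovered reads as alternatives. Fold changes are Con-DHT minus Con-Veh. The scripts were tested on simulated data. P-values rest on the spread between mice. In limma the spread of each gene is moved toward that of genes of similar level. A limma p-value therefore does not rest on the spread of that gene alone. The chi-square per degree of freedom between libraries of a group was 19.2 to 61.6, so none was counted as a duplicate.

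The members and the gene lists were chosen with earlier results of these data known. Named genes are every member with an adjusted p of at most 0.05, the 5 others with the smallest p in each direction, 20 listed members, and up to 3 called genes of each related list. Symbols, positions and exon lengths came from GENCODE M21 (GRCm38), matched by gene identifier, and promoters from RefSeq (GRCm38.p6). Near copies were found with blastn 2.17.0. Tables and figures used Python 3.11.15, numpy 2.4.6, pandas 2.3.3 and matplotlib 3.10.9.

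As alternatives, the replicate number was used as a block, each library was left out in turn, edgeR or DESeq2 replaced limma, and limma was run without the trend and with array weights. Other pseudocounts (0.1 and 5) and filters (none, or a mean of 50 and above) were tried. Scaling was changed to quantile normalization, an equal upper quartile, totals made equal outside the Mup genes, the spike-ins, or a loess correction for length and GC content (span 0.5). Leaving out Con-DHT 3 and Con-DHT 4 together was added after seeing the data.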

Additional observations from a re-analysis of the deposited data

Results flagged for a closer look

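In 10 of 58 groups (29 named genes in 2 groups each) 1 library stood apart from the other 3 by Dixon's criterion, where chance gives about 1 in 20. Eif4ebp3 stood out in both groups, with 387 in Con-Veh 1 against 86.9 to 119 in the other Con-Veh livers and 864.2 in Con-DHT 4 against 144 to 232. In Con-Veh 1, Eif2s1 was high at 467.2 (others 410.2 to 417), Eif6 was high at 1285 (others 995 to 1010.2) and Eif4a2 was low at 4092 (others 5082 to 5136). In Con-DHT 4, Eif4a1 was high at 4112 (others 3480.3 to 3539.7). Con-DHT 3 had a low Eif2ak2 at 219.4 (others 256 to 261) and a high Eif3f at 1172 (others 1056 to 1069). Eif2ak4 was low in Con-DHT 2 at 164.5 (others 187 to 191), and Eef1a1 was low in Con-DHT 1 at 56194 (others 57446 to 57616).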

How the results depend on the processing

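The 3 calls among the translation factor genes became 6 with an equal total without the Mup genes and 8 with DESeq2, and 0 with limma without the trend, with the replicate number as a block and, added after seeing the data, without Con-DHT 3 and Con-DHT 4 together (15 at an unadjusted p of at most 0.05 in each of these 3); leaving out 1 library gave 0 to 2. Under the replicate block 10 genes of the related lists and 3 ribosomal protein genes (lower) were called, and the numbers do not pair the samples: deviations of same-numbered libraries had correlations of -0.186 to -0.00596, and they name different mice. The 25 calls over the related lists were 13 with quantile normalization, 13 without the Mup total, 6 with spike-in scaling, 59 with the length and GC correction, 9 without the trend, 42 with DESeq2 and 7 to 37 with 1 library left out. The 16 ribosomal protein genes called lower were 10 with a mean of at least 50, 5 with quantile normalization, 10 with an equal upper quartile, 2 without the Mup total, 0 with spike-in scaling (limma, with 1 at an unadjusted p of at most 0.05), 49 with the length and GC correction, 2 without the trend, 9 with edgeR, 30 with DESeq2, 34 without Con-DHT 3 and 4, and 2 to 31 with 1 library left out. The 15 genes without overlap between the groups were 0 with spike-in scaling, 23 without Con-DHT 3 and 4, and 16 to 20 with 1 library left out. With fewer libraries, full separation is easier to reach for any gene. The share of all tested genes under these settings is not given here, so these counts cannot be read as a stronger difference. Apart from the settings themselves, the causes were not tested. The sign of the log2 fold change reversed for 11 named genes, none of them called by limma (DESeq2 called Eef1a1), whose size was at most 0.18. Without the Mup total it was 0.0218 for Eef2k, 0.0607 for Eif2ak2, 0.0625 for Eif2ak4, 0.0872 for Eif2b5, 0.082 for Eif3a, 0.0036 for Eif4a1, 0.0839 for Eif4a2 and 0.0781 for Eif6. With spike-in scaling it was 0.024 for Eef1a1, 0.12 for Eef2k, 0.16 for Eif2ak2, 0.16 for Eif2ak4, 0.19 for Eif2b5, 0.18 for Eif3a, 0.0139 for Eif3f, 0.10 for Eif4a1, 0.18 for Eif4a2 and 0.18 for Eif6. Quantile normalization gave 0.0581 for Eif3a and 0.0179 for Eif4a2, the length and GC correction -0.0633 for Eif4ebp2, and leaving out Con-DHT 3 and 4 gave 0.22 for Eef2k, 0.0249 for Eif2ak2, 0.0029 for Eif3a and 0.12 for Eif4a2. Over the omission of single libraries the log2 fold change ran from -0.23 to 0.0358 for Eef2k, -0.10 to 0.061 for Eif2ak2, -0.0577 to 0.0145 for Eif2ak4, -0.0689 to 0.0329 for Eif2b5, -0.0392 to 0.0012 for Eif3a, -0.15 to 0.003 for Eif4a1, -0.11 to 0.0536 for Eif4a2, -0.0465 to 0.0631 for Eif4ebp2 and -0.12 to 0.069 for Eif6.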
